A study of Mus musculus with 4 samples.

Results

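Titin, nebulin and myospryn are very large proteins of the muscle sarcomere, and their genes Ttn (NM_011652), Neb (NM_010889) and Cmya5 (NM_023821) are the 3 genes described here, of 1000 genes in the deposited table of read counts. They were taken by name, with their counts in all 4 libraries, and each had one entry in the table. The libraries came from tibialis anterior, a leg muscle, of Dmd Dup2 mice, a dystrophinopathy model in which exon 2 of the dystrophin gene is duplicated. All groups shared this genotype. The treated group had received scAAV9.U7-ACCA, an exon-skipping vector based on a self-complementary AAV9 (an adeno-associated virus) that carries a U7 small nuclear RNA, and the untreated group served as control. From the muscle of each group an mRNA library and a library of ribosome footprints, the mRNA fragments covered by ribosomes, were made, with 1 library per group (mRNA treated, mRNA untreated, footprints treated and footprints untreated). The labels used here give no age, sex, dose or number of animals per library, and no healthy muscle was among the groups.

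Titin spans the sarcomere from the Z-disc to the M-band. It acts as a molecular spring and as a scaffold along the myosin filament. Nebulin runs along the actin filament from the Z-disc and helps to set and stabilise its length. Myospryn, the product of Cmya5, is a large muscle protein of the costamere and Z-disc region that binds desmin, dystrophin, alpha-actinin and the regulatory subunit of protein kinase A, for which it is an anchoring protein. Because the coding sequences are so long, reads and footprints per gene are many, and a count compares libraries for one gene, not the levels of different genes. Transcript lengths of the build of the files were not used here, so ranks and ratios between genes below are of reads, which grow with transcript length, and do not compare levels per molecule.

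Upstream sequences are shown because the mRNAs of the 3 genes differed between the conditions in the same direction and by similar factors. In the RefSeq promoter table of build GRCm38.p6, 2 of the 3 genes, Ttn and Cmya5, matched an entry, of 300 bases each, from 250 before to 50 after the annotated start. The build of the deposited counts is mm9 per the submitters' processing notes. Both lie on the minus strand, at chr2:76982498-76982797 for Ttn and chr13:93144675-93144974 for Cmya5, and are written 5′ to 3′ in the direction of transcription with matches to the motifs named below in capitals.
Ttn: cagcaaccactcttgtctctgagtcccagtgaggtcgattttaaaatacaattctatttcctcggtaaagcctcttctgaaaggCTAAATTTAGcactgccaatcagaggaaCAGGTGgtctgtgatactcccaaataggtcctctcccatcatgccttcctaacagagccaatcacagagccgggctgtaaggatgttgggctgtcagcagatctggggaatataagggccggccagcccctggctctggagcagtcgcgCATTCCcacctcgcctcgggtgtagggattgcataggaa
Cmya5: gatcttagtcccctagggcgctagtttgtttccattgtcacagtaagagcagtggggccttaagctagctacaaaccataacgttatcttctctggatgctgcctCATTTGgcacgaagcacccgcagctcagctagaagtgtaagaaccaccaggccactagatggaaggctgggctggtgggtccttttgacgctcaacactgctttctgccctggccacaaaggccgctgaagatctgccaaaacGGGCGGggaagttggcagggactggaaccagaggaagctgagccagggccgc
The motifs were searched on both strands, and no matches overlapped. The Ttn sequence held 1 match to the MEF2 site, which 3.16% of 32544 promoters of this length held, 1 match to the MCAT element CATTCC, held by 14.6%, and 1 E-box CANNTG, held by 72.3%. The Cmya5 sequence held 1 E-box and 1 GC box GGGCGG, the last held by 35.9% of all promoters and by 57.9% of the 988 promoters of the listed genes. Neither sequence matched the CArG box or the TATA box TATAAA, which 1.64% and 13.6% of all promoters held, and 2.83% and 12.3% of those of the listed genes. A match or its absence describes these letters alone and says nothing of the binding of a factor.

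In mRNA the listed genes held 4248818 reads for treated and 125236 for untreated muscle, and the footprint libraries held 1664122 reads for treated and 3349015 for untreated muscle. Markers of muscle fibre (Acta1, Ckm, Mylpf, Tnnc2, Myh4, Myh1, Pvalb and Mb) were all 8 in the table and held 17.5% of listed reads in treated mRNA and 24.3% in untreated mRNA, with 22.3% of treated and 23.8% of untreated footprints. These shares are of totals that include the 3 giant genes, and at the TMM scale used below 2 of the 8 fibre markers were higher in treated mRNA, 0 lower and 6 called neither way. Of 9 macrophage markers 4 were listed, and they summed to 0.0165% in treated and 0.125% in untreated mRNA, and to 0.0556% in treated and 0.125% in untreated footprints. Of 7 fibroblast markers 6 were listed, and they summed to 0.285% in treated and 2.09% in untreated mRNA, and to 0.547% in treated and 2.64% in untreated footprints. Within the 6, Col1a1, Col1a2 and Col3a1 were lower in treated mRNA, Dcn was higher, and Fn1 and Lum were called neither way. Of 7 markers of regenerating fibres and satellite cells 4 were listed, and they summed to 2.93% in treated and 5.71% in untreated mRNA, and to 7.14% in treated and 8.35% in untreated footprints. Within the 4, Actc1 and Myl4 were lower in treated mRNA and footprints at the TMM scale. Myh8 and Myh3, which held most reads of the 4, were called neither way in both. How reads that match several myosin genes were counted is not known here. The part of such shared reads in the counts of Myh8, Myh3 and other myosin markers was not tested. The markers of endothelium, Schwann cells and blood were not among the listed genes, and of the 4 cardiac muscle markers Myh6 alone was, at 0.238% in treated and 0.152% in untreated mRNA and 0.959% in treated and 0.925% in untreated footprints. The part of these shifts in the results below was not tested, and in such bulk samples fewer cells of a type and less RNA per cell cannot be told apart.

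The 3 genes together held 32.7% of the listed reads in treated mRNA and 10.4% in untreated mRNA, and 10.3% of treated and 4.92% of untreated footprints. The mRNAs of all 3 genes were higher in the treated library, by factors that lay close to each other, while their footprints differed from gene to gene. Titin footprints differed most, myospryn footprints less, and nebulin footprints stayed under the fold threshold. Footprints per mRNA were called lower in treated muscle for nebulin and myospryn under all 7 library scalings tried, and for titin under 4 of them.

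Ttn had 1126793 reads in treated mRNA and 10853 in untreated mRNA. It had 135680 footprints in treated and 107397 in untreated muscle. Libraries differ in depth, so these counts were also set against the listed total. Ttn held 26.5% of treated mRNA (95% exact Clopper-Pearson interval 26.5 to 26.6) and 8.67% of untreated mRNA (8.51 to 8.82). In footprints its share was 8.15% (8.11 to 8.19) in treated and 3.21% (3.19 to 3.23) in untreated muscle. Ttn was the gene with the most reads in the treated mRNA library and ranked 2 in the untreated one, and it ranked 2 in treated and 7 in untreated footprints. It was higher in the treated library of both kinds.

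Neb had 218348 reads in treated mRNA and 1788 in untreated mRNA, with 30362 treated and 52116 untreated footprints. Its share was 5.14% (5.12 to 5.16) in treated mRNA and 1.43% (1.36 to 1.49) in untreated mRNA. In footprints it was 1.82% (1.80 to 1.84) in treated and 1.56% (1.54 to 1.57) in untreated muscle. By reads, Neb ranked 3 in treated and 13 in untreated mRNA but stayed in nearly the same place in footprints, at rank 10 treated and 11 untreated.

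Cmya5 had 46065 reads in treated mRNA and 398 in untreated mRNA, with 4606 treated and 5245 untreated footprints. Its share was 1.08% (1.07 to 1.09) in treated mRNA and 0.318% (0.287 to 0.351) in untreated mRNA, and 0.277% (0.269 to 0.285) of treated and 0.157% (0.152 to 0.161) of untreated footprints. It ranked 12 in treated and 42 in untreated mRNA, and 45 in treated and 72 in untreated footprints. The 398 untreated mRNA reads set the precision of every mRNA ratio of this gene.

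Since a library total contains Ttn itself, the shares of the others were also taken over the listed reads without Ttn, an alternative chosen after the data were seen. Neb then held 6.99% in treated and 1.56% in untreated mRNA, and 1.99% of treated and 1.61% of untreated footprints. Cmya5 held 1.48% in treated and 0.348% in untreated mRNA, and 0.301% of treated and 0.162% of untreated footprints. Both mRNA shares were thus higher in the treated library also when Ttn was left out of the total.

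**Figure D1:**
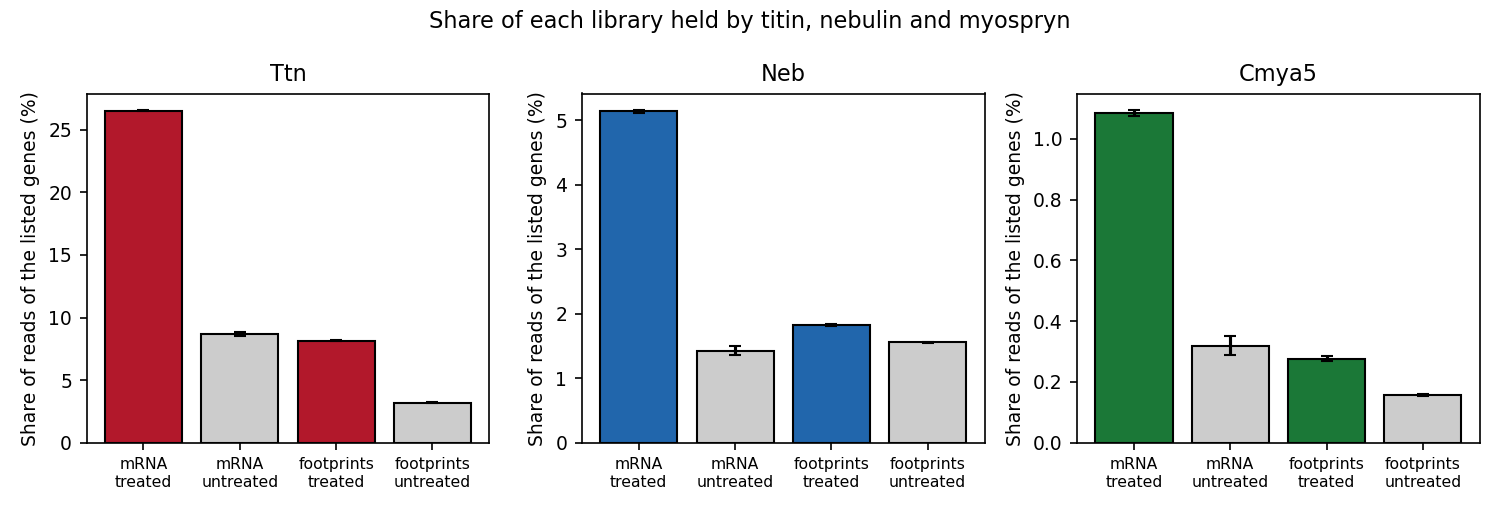
Share of the reads of the 1000 listed genes, in percent on a linear axis from 0, held by Ttn, Neb and Cmya5 in each of the 4 libraries. Coloured bars are treated and grey bars untreated libraries, and error bars are 95% exact binomial intervals that cover counting error only. For Neb the treated bar stands far above the untreated one in mRNA (5.14% and 1.43%) and little above it in footprints (1.82% and 1.56%).

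The mRNA comparison asked which transcripts differed in treated muscle. Ratios are of reads scaled by TMM, which sets libraries to a common level through the bulk of their genes, and carry 95% exact conditional binomial intervals that cover counting error only. Since reads had no molecular identifiers, several can stem from 1 molecule. A call of higher or lower required a ratio of 1.5-fold or more, an interval without 1 and a sum of at least 50 reads in both libraries together. All 3 genes were called higher in treated mRNA, where 31.8% of 996 genes were. At TMM scale Ttn had 333587 CPM in treated and 69265 in untreated mRNA, a ratio of 4.82 (4.73 to 4.91). Neb had 64642 in treated and 11411 in untreated mRNA, a ratio of 5.66 (5.41 to 5.94), and Cmya5 13638 in treated and 2540 in untreated mRNA, a ratio of 5.37 (4.86 to 5.94). From the highest ratio down they ranked 16 (Neb), 22 (Cmya5) and 34 (Ttn) of 996 genes. The table holds the genes with the most untreated mRNA reads, down to 14. Genes with fewer could not enter this ranking or the share of genes called. Relative to the median listed gene they lay 2.44, 2.37 and 2.21 log2 units higher in the same order, and these distances do not depend on the scaling.

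The size of these ratios depended on the scaling, and the direction did not in the 7 scalings tried. The Ttn mRNA ratio ran between 2.61 and 4.82, that of Neb between 3.07 and 5.66 and that of Cmya5 between 2.91 and 5.37. The lowest values came with the authors' own library constants and the highest with TMM. All 3 genes were called higher in each of the 7. With the summed reads of the 8 fibre markers as the base, a choice made after the data were seen, there were 152 Ttn reads per 100 marker reads in treated and 35.6 in untreated mRNA, a ratio of 4.25 (4.16 to 4.35). For Neb the base gave 29.4 reads in treated and 5.87 in untreated mRNA, a ratio of 5.00 (4.77 to 5.25). For Cmya5 it gave 6.199 in treated and 1.31 in untreated mRNA, a ratio of 4.74 (4.29 to 5.24). The 3 genes were therefore also higher relative to other abundant fibre transcripts.

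In footprints the question was how ribosome occupancy differed in treated muscle. Ttn had 82473 CPM at TMM scale in treated and 31534 in untreated muscle, a ratio of 2.62 (2.59 to 2.64). Cmya5 had 2799.7 in treated and 1540.0 in untreated muscle, a ratio of 1.82 (1.75 to 1.89). Both were called higher, as 19.9% of the compared genes were. Neb had 18455 in treated and 15302 in untreated muscle, a ratio of 1.21 (1.19 to 1.22), and was not called. The genes ranked 36 (Ttn), 112 (Cmya5) and 331 (Neb) from the highest ratio, the reverse of their order in mRNA, where the intervals of Neb and Cmya5 overlapped. Per 100 footprints of the fibre markers there were 36.6 Ttn footprints in treated and 13.5 in untreated muscle, 1.24 Cmya5 footprints in treated and 0.658 in untreated muscle, and 8.18 Neb footprints in treated and 6.53 in untreated muscle. The Neb ratio ran between 0.999 and 1.27 over the 7 scalings and was called in none of them, while Ttn (2.17 to 2.76) and Cmya5 (1.51 to 1.92) were called higher in each.

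**Figure D2:**
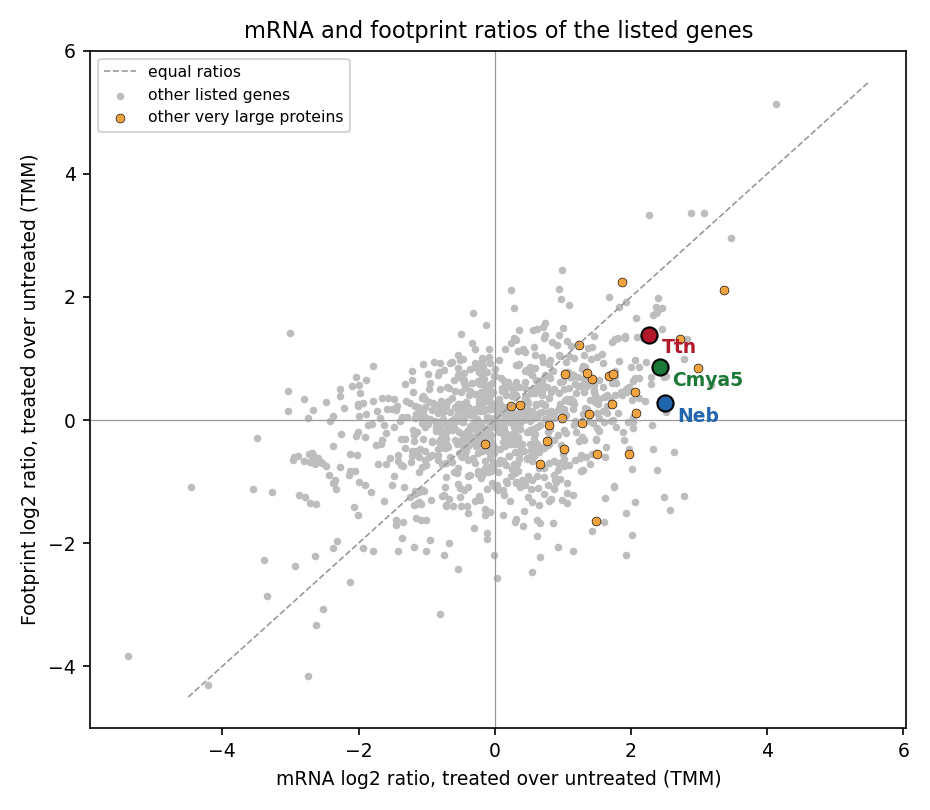
Each point is a listed gene with at least 50 reads in both pairs of libraries, placed by its treated over untreated log2 ratio in mRNA (horizontal) and in footprints (vertical) under TMM scaling. Orange points are other genes known to encode very large proteins, and on the dashed line both ratios are equal. Ttn, Cmya5 and Neb stand close together in mRNA (2.27, 2.42 and 2.50) and apart in footprints (1.39, 0.86 and 0.27), all below the dashed line.

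The ratio between 2 of these genes within a library needs no library scaling, and its change between libraries needs no transcript length. In mRNA, Neb had 19.4 reads per 100 Ttn reads (95% interval 19.3 to 19.5) in treated and 16.5 (15.7 to 17.3) in untreated muscle, so the ratio was 1.18-fold higher (1.119 to 1.24) in treated muscle. Among footprints, Neb had 22.4 per 100 of Ttn (22.1 to 22.7) in treated and 48.5 (48.0 to 49.0) in untreated muscle, which is 2.17-fold lower (2.13 to 2.20) in treated muscle. The balance of nebulin to titin thus moved little in mRNA and by more than 2-fold in footprints, in the opposite direction.

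Cmya5 took a place between them. It had 4.09 mRNA reads per 100 Ttn reads (4.05 to 4.13) in treated and 3.67 (3.31 to 4.05) in untreated muscle, a ratio 1.11-fold higher (1.01 to 1.23) in treated muscle. Among footprints it had 3.39 per 100 of Ttn (3.30 to 3.496) in treated and 4.88 (4.75 to 5.02) in untreated muscle, 1.44-fold lower (1.38 to 1.498) in treated muscle. Against Cmya5, Neb had 474 mRNA reads per 100 (469 to 479) in treated and 449 (403 to 502) in untreated muscle, and the interval of that change, 1.06 (0.946 to 1.18), held 1. Neb footprints numbered 659 per 100 of Cmya5 (639 to 680) in treated and 994 (966 to 1022) in untreated muscle, 1.51-fold lower (1.45 to 1.57) in treated muscle.

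**Figure D3:**
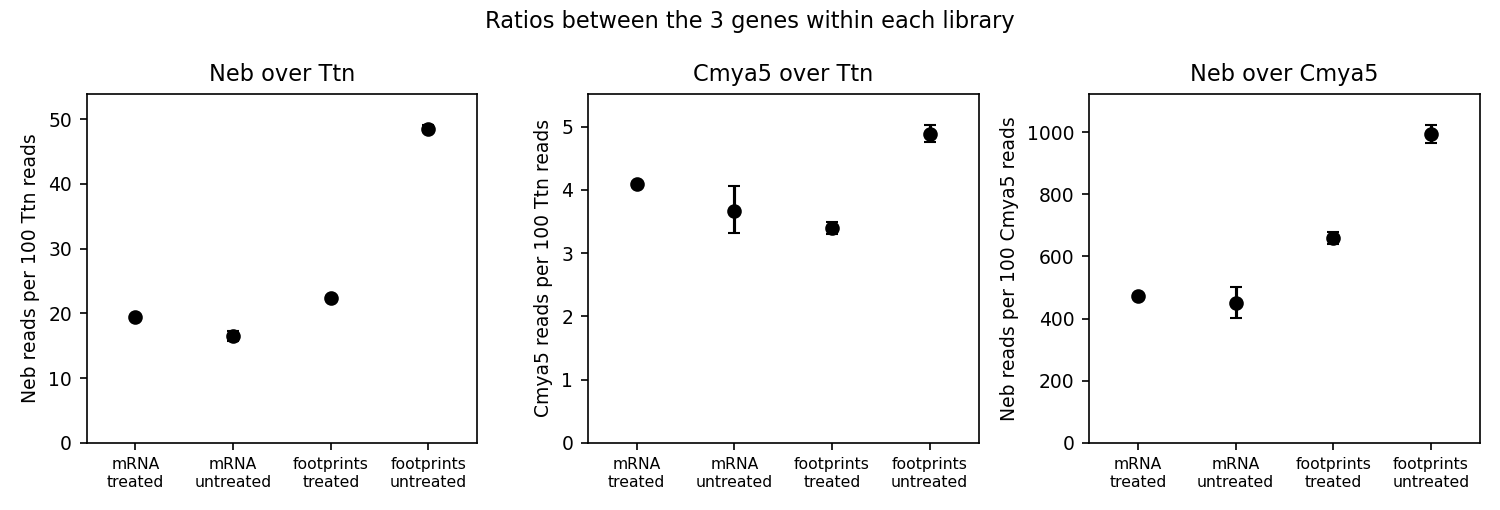
Reads of one gene per 100 reads of another within each library, on linear axes from 0, with 95% exact conditional binomial intervals that cover counting error only. In the left panel Neb has 19.4 and 16.5 reads per 100 Ttn reads in treated and untreated mRNA, but 22.4 and 48.5 among treated and untreated footprints.

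Footprints per mRNA, the footprint reads of a gene over its mRNA reads, were given for each condition relative to the median listed gene. Both kinds of reads grow with length, so the value describes ribosome density along an mRNA and not the number of ribosomes per molecule. In treated muscle Ttn had 0.251 (0.2499 to 0.253) times the footprints per mRNA of the median gene, Neb 0.2903 (0.287 to 0.294) times and Cmya5 0.209 (0.202 to 0.215) times. In untreated muscle Ttn had 0.450 (0.441 to 0.459) times, Neb 1.32 (1.26 to 1.39) times and Cmya5 0.599 (0.541 to 0.665) times. All 3 genes lay well below the median gene in treated muscle and near each other, whereas in untreated muscle Neb lay above it and the others below it. In treated muscle 8.73% (Ttn), 10.6% (Neb) and 6.72% (Cmya5) of 997 genes had a lower value. In untreated muscle 10.6% (Ttn), 69.2% (Neb) and 20.7% (Cmya5) of 998 genes had one. Against Ttn, Neb had 1.15-fold (1.14 to 1.17) as many footprints per mRNA in treated muscle and 2.95-fold (2.80 to 3.10) in untreated muscle.

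**Figure D4:**
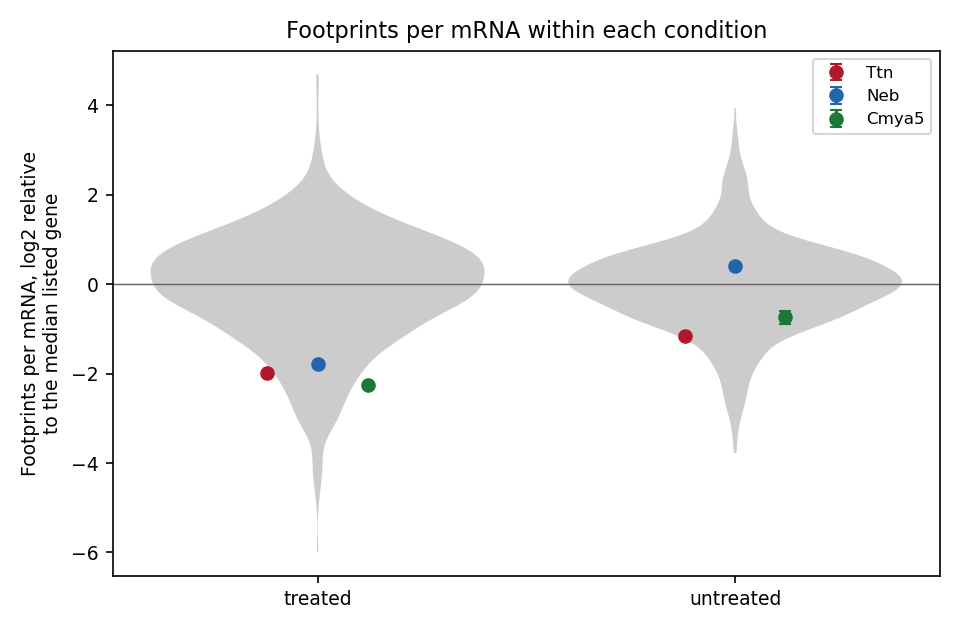
Footprints per mRNA relative to the median listed gene, on a log2 scale, in treated and untreated muscle. Grey shapes are the distribution over listed genes with at least 50 reads in the pair, points are the 3 genes, and error bars are 95% intervals that cover counting error only and are mostly smaller than the points. Neb lies at -1.78 in treated and at 0.41 in untreated muscle.

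Translation efficiency, for which the footprint ratio was divided by that in mRNA, was called lower in treated muscle for all 3 genes, as it was for 31.9% of 995 genes. For it 0.5 was added to every count, and its 95% interval is a normal one for log values. The ratio was 0.543 (0.532 to 0.554) for Ttn, 0.213 (0.203 to 0.224) for Neb and 0.339 (0.305 to 0.377) for Cmya5. From the lowest value, Neb ranked 36, Cmya5 108 and Ttn 249 of 995 genes. The call for Ttn depended on the scaling. Its ratio was 0.831 with the listed totals, 0.694 without the 20 most abundant genes of each library and 0.829 with the authors' constants, all above the threshold for a call. Neb and Cmya5 were called lower in each of the 7 scalings, at 0.213 to 0.326 and 0.339 to 0.519. Of the 317 genes called higher in treated mRNA, 214 (67.5%) were called lower in translation efficiency and 10 (3.15%) higher. The mRNA ratio is the denominator of translation efficiency, so these calls are not independent of each other.

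**Figure D5:**
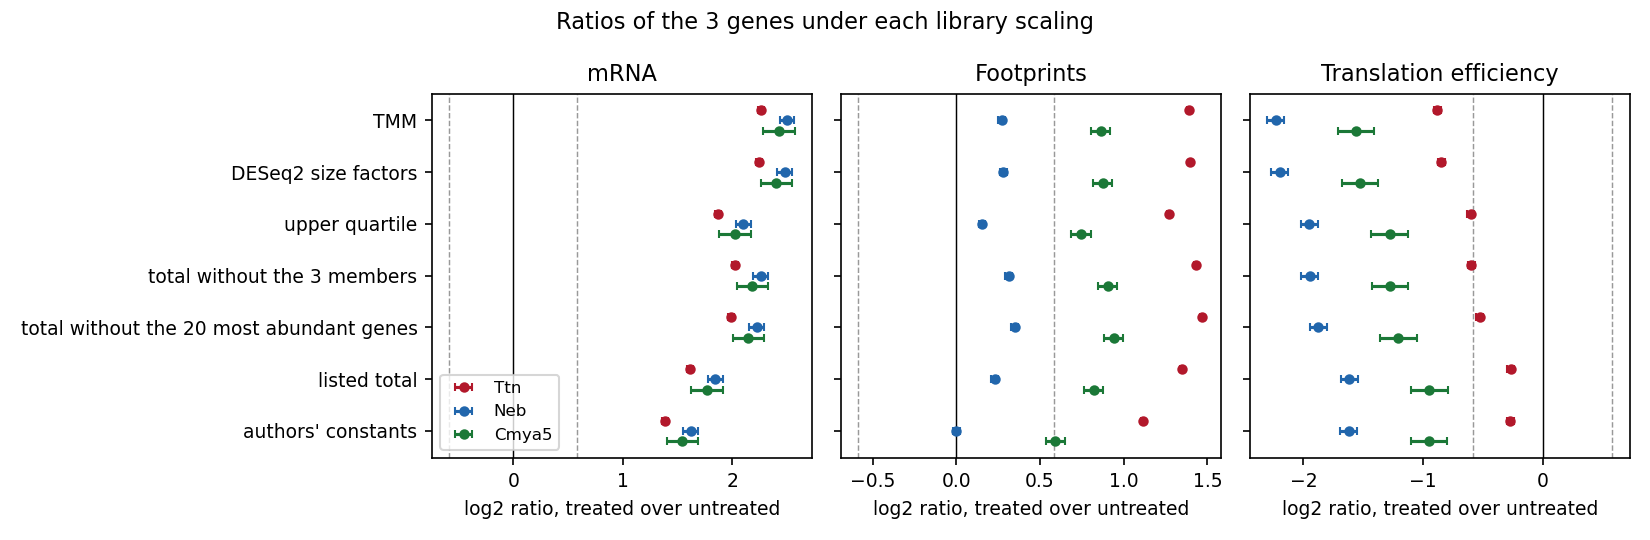
Treated over untreated log2 ratios of Ttn, Neb and Cmya5 in mRNA, footprints and translation efficiency under 7 library scalings, with 95% intervals that cover counting error only. The solid line marks equality and the dashed lines the 1.5-fold threshold. In mRNA all points lie right of the threshold, whereas the translation efficiency of Ttn crosses it with the scaling (0.543 with TMM, 0.831 with the listed totals).

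Other genes of very large proteins were set beside the 3, from a list chosen by known protein size after the data were seen. Of 26 such genes in the table, 23 were higher and 0 lower in treated mRNA, against 31.8% higher and 24.8% lower over all genes. Their median log2 ratio was 1.40 (range -0.14 to 3.37) against 0.06 over all genes. Each of the 3 sarcomere genes lay above 23 of the 26 and below Xirp2, an actin-binding repeat protein, Huwe1, a ubiquitin ligase, and Dst, a cytoskeletal linker. In footprints the 26 had a median log2 ratio of 0.24 with 10 higher and 2 lower, against 19.9% higher and 26.2% lower over all genes. Ttn lay above 24 of them, Cmya5 above 22 and Neb above 15. In translation efficiency 19 of the 26 were lower and 0 higher, where 31.9% of all genes were lower and 26.0% higher, with a median of -1.15 against -0.11 over all genes, and 2 of the 26 lay below Neb, 5 below Cmya5 and 17 below Ttn. The median mRNA ratio of these 26 stayed above 0 on the log2 scale, and the median translation efficiency below 0, under each of the 7 scalings. The median footprint ratio did so under 6 and was -0.03 with the authors' constants. The counts moved more: in mRNA 15 were higher and 1 lower with the listed totals, and 11 and 1 with the authors' constants. In footprints 4 were higher and 7 lower with the authors' constants, and in translation efficiency 12 were lower and 1 higher with either of these scalings.

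For each of the 3 genes the listed genes with the most similar pattern were found from log2 scaled counts centred per gene over the 4 libraries, by Euclidean distance among 994 other genes. Nearest to Ttn were Pde4dip (distance 0.27), which encodes the anchoring protein myomegalin, Cmya5 (0.39) and Dst (0.44). Pde4dip had 26509 reads in treated and 325 in untreated mRNA, with 3337 treated and 2668 untreated footprints. Nearest to Cmya5 were Golga4 (0.32), a golgin of the trans-Golgi, Ttn (0.39) and Dst (0.44). Titin and myospryn were thus each among the 3 nearest genes of the other. Neb stood further off, as neighbour 40 of Ttn (1.20) and 20 of Cmya5 (0.91). Among its 3 nearest genes were Crat (0.11), which encodes carnitine acetyltransferase, and AI314180 (0.32). Crat had 1725 reads in treated and 14 in untreated mRNA, so its likeness to Neb rests on few reads.

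Partners of titin at the Z-disc and I-band did not share one direction. Of 15 listed genes, 8 were higher and 3 lower in treated mRNA, and 5 were higher and 4 lower in footprints, with medians 0.56 log2 units above and 0.15 below those of all genes. Over all genes 31.8% were higher and 24.8% lower in mRNA, and 19.9% higher and 26.2% lower in footprints. Ankrd23, an ankyrin repeat protein bound to the N2A segment of titin, was 4.53-fold higher (3.57 to 5.84) in treated mRNA and 2.51-fold higher (2.17 to 2.90) in footprints, and Myot, the Z-disc protein myotilin, was 2.76-fold higher (2.23 to 3.46) in mRNA. Tcap, which encodes telethonin, the cap that joins titin ends at the Z-disc, had 3.35-fold higher footprints (3.18 to 3.52) while its mRNA ratio of 0.804 (0.697 to 0.932) was not called. Hspb1, a small heat shock protein that binds titin, had 5.41-fold higher footprints (5.03 to 5.82). Actn2, an alpha-actinin that anchors titin and actin at the Z-disc, was 4.19-fold lower (3.87 to 4.53) in mRNA and 2.65-fold lower (2.54 to 2.76) in footprints. Actn3, another alpha-actinin of this list with more reads, was 2.03-fold higher (1.89 to 2.18) in mRNA and 1.56-fold lower (1.51 to 1.61) in footprints. Fhl1, a LIM protein, was 9.65-fold lower (8.52 to 10.9) in mRNA and 2.25-fold lower (2.04 to 2.48) in footprints. With the listed totals 2 of the 15 mRNAs were higher and 7 lower. With the authors' constants 1 was higher and 7 lower in mRNA, and 3 were higher and 7 lower in footprints. The counts of this list thus turned with the scaling, where the mRNA and footprint calls of the 3 giant genes did not.

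Partners at the thick filament and M-band were also divided. Of 11 listed genes, 6 were higher and 3 lower in treated mRNA, and 4 were higher and 3 lower in footprints, with medians 0.63 and 0.23 above those of all genes. The shares over all genes were 31.8% higher and 24.8% lower in mRNA, and 19.9% higher and 26.2% lower in footprints, so the share of lower genes was near that of the table. The ubiquitin ligase Trim63, which binds titin near the M-band, was 7.35-fold higher (4.58 to 12.6) in mRNA and 10.3-fold higher (9.26 to 11.4) in footprints. Its relative Trim54 was 2.44-fold higher (2.16 to 2.76) in footprints, and the autophagy receptor Sqstm1 was 2.17-fold higher (1.66 to 2.91) in mRNA. Mybpc1, slow myosin-binding protein C, was 2.11-fold lower (1.98 to 2.26) in mRNA and 2.58-fold lower (2.48 to 2.68) in footprints. Myom3, an M-band protein, was 10.1-fold lower (5.97 to 16.8) in mRNA and 7.28-fold lower (4.96 to 11.1) in footprints. With the listed totals 1 of the 11 mRNAs was higher and 4 lower, and with the authors' constants 1 was higher and 5 lower.

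Among the nebulin family and genes of thin filament length, 5 of 12 were higher and 4 lower in treated mRNA, and 4 were higher and 4 lower in footprints. These counts lie near the shares over all genes, of which 31.8% were higher and 24.8% lower in mRNA and 19.9% higher and 26.2% lower in footprints. Xirp1 and Xirp2, actin-binding repeat proteins of the Z-disc and intercalated disc, were 11.1-fold (7.74 to 16.6) and 10.3-fold (8.73 to 12.3) higher in mRNA, and 7.80-fold (7.11 to 8.58) and 4.31-fold (4.01 to 4.65) higher in footprints. Lmod3, a leiomodin that nucleates actin filaments, was 2.32-fold lower (1.64 to 3.19) in mRNA, and Tmod1, which caps their pointed ends, 1.90-fold lower (1.44 to 2.48). Acta1, the skeletal actin along which nebulin runs, had an mRNA ratio of 0.854 (0.826 to 0.883), not called, and 2.34-fold lower footprints (2.31 to 2.38). Cfl2, the muscle cofilin, had 2.36-fold lower footprints (2.05 to 2.74). Neb itself lay 2.44 log2 units above the median of all genes in mRNA and 0.29 above it in footprints, and the median of this list lay 0.21 and 0.17 above it. With the listed totals 3 of the 12 mRNAs were higher and 6 lower.

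Of 8 listed partners and neighbours of myospryn, 4 were higher and 2 lower in treated mRNA, where 31.8% of all genes were higher and 24.8% lower. In footprints 3 were higher and 4 lower, where 19.9% of all genes were higher and 26.2% lower. Dmd, which encodes dystrophin and whose transcript the vector targets, was 3.63-fold higher (2.45 to 5.63) in mRNA from 1959 treated and 25 untreated reads. Dmd footprints were 4.74-fold higher (3.62 to 6.24). Counts per gene do not tell whether exon 2 was read. Des, the intermediate filament protein desmin, was 2.003-fold lower (1.86 to 2.16) in mRNA and 4.39-fold lower (4.18 to 4.61) in footprints. Ryr1, the calcium release channel, was 1.67-fold higher (1.63 to 1.72) in footprints. Cacna1s, the voltage sensor of the T-tubule, was 5.21-fold higher (4.17 to 6.60) in mRNA and 1.75-fold lower (1.60 to 1.91) in footprints. Prkaca, the kinase subunit of protein kinase A, had an mRNA ratio of 1.02 (0.678 to 1.61) and 5.94-fold lower footprints (4.80 to 7.42). Actn2, given above, belongs to this list too. With the listed totals 3 of the 8 mRNAs were higher and 3 lower, and with the authors' constants 2 were higher and 4 lower in mRNA and 1 was higher and 4 lower in footprints.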

How the data were processed

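The 3 genes and the partner lists were chosen with earlier results of these data known. The authors deposited 1 table of 1000 genes with raw read counts and normalized read counts for each of 4 libraries, per the file headers. The normalized values the authors deposited are, in each library, its counts multiplied by a single constant, and were read as CPM, a scale inferred from the values. Rows are the genes with the most untreated mRNA reads, down to 14. The submitters' processing notes name Trimmomatic, STAR, edgeR and mm9 but not their roles. For the counting tool, the strand setting and reads with several matches, the sources used here give nothing. Titin and nebulin contain internal repeats, so such handling could change their counts. Per the labels' protocols, homogenates held cycloheximide, footprints were prepared with a small RNA kit and RNA with a stranded kit for total RNA, and reads had 50 bases.

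Raw counts were scaled with TMM (edgeR 4.0.16, R 4.3.3) over all listed genes and 4 libraries, and ratios and intervals were computed in Python 3.11.15 with scipy 1.17.1 and checked on simulated data. The simulated counts varied by counting error alone, so this checked the computation and not the spread between animals or duplicate reads. With 1 library per group no test between conditions was possible and no p-value is given. Alternatives were the upper quartile, DESeq2 1.42.0 size factors, the listed total, that total without the 20 most abundant genes or without the 3 genes, the authors' constants, other read minimums, a 2-fold threshold and another added count. Partner genes were named by their 2 highest and 2 lowest ratios in mRNA or footprints, with Actn3 added outside this rule beside Actn2. Of the RefSeq identifiers, 996 matched the GRCm38.p6 gene table, used for names alone. The planned classes of protein length were replaced by a list of very large proteins, and per-codon ratios were not run, since protein lengths were not used here. One gene that the rule for similar patterns names is not reported here.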

Additional observations from a re-analysis of the deposited data

How the results depend on the processing

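Another scaling moved all ratios of a comparison by the same factor, and no called ratio of the 3 genes turned its direction in the scalings tried. With the listed total the mRNA ratios were 3.06 for Ttn, 3.6 for Neb and 3.41 for Cmya5. With the upper quartile the mRNA ratios were 3.65 for Ttn, 4.3 for Neb and 4.07 for Cmya5. With the total without the 20 most abundant genes the mRNA ratios were 3.98 for Ttn, 4.68 for Neb and 4.43 for Cmya5. With the total without the 3 genes the mRNA ratios were 4.08 for Ttn, 4.79 for Neb and 4.54 for Cmya5. With the authors' constants the mRNA ratios were 2.61 for Ttn, 3.07 for Neb and 2.91 for Cmya5. With the listed total the footprint ratios were 2.54 for Ttn and 1.17 for Neb. With the upper quartile the footprint ratios were 2.41 for Ttn, 1.11 for Neb and 1.68 for Cmya5. With the total without the 20 most abundant genes the footprint ratios were 2.76 for Ttn, 1.27 for Neb and 1.92 for Cmya5. With the total without the 3 genes the footprint ratios were 2.69 for Ttn and 1.24 for Neb. With the authors' constants the footprint ratios were 2.17 for Ttn, 0.999 for Neb and 1.51 for Cmya5. With the listed total the translation efficiency ratios were 0.831 for Ttn, 0.326 for Neb and 0.519 for Cmya5. With the upper quartile the translation efficiency ratios were 0.66 for Ttn, 0.259 for Neb and 0.412 for Cmya5. With the total without the 20 most abundant genes the translation efficiency ratios were 0.694 for Ttn, 0.272 for Neb and 0.433 for Cmya5. With the total without the 3 genes the translation efficiency ratios were 0.661 for Ttn, 0.259 for Neb and 0.413 for Cmya5. With the authors' constants the translation efficiency ratios were 0.829 for Ttn, 0.325 for Neb and 0.518 for Cmya5. With DESeq2 size factors the translation efficiency ratio was 0.555 for Ttn. With these scalings Ttn lost its call in translation efficiency under the listed total, the total without the 20 most abundant genes and the authors' constants. The footprints per mRNA relative to the median gene and the ratios between the 3 genes do not depend on the scaling. Adding 5 to each count kept the 3 translation efficiency ratios within their intervals. Counts of called genes moved by over 1.5 times in some settings. In mRNA, 148, 205 and 110 genes were higher with the listed total, upper quartile and authors' constants in turn, against 317, and 464, 543 and 160 were lower with the listed total, the authors' constants and a minimum of 200 reads, against 247. In footprints, 114 were higher with the authors' constants, and 81 higher and 143 lower at 2-fold, against 199 and 262. In translation efficiency, 444 were higher and 157 lower with the listed total, and 444 and 158 with the authors' constants, against 259 and 317. The median log2 mRNA ratio of all genes was 0.06 with TMM, -0.60 with the listed total, -0.34 with the upper quartile, -0.22 when the 20 most abundant genes were left out, -0.18 without the 3 genes and -0.82 with the authors' constants, and genes higher in treated mRNA made up 56.2%, 24.2%, 35.7%, 42.2%, 43.7% and 16.8% of those called. The depth of the untreated mRNA library limits the mRNA ratios, and differences between animals were not measured. No paired analysis was possible because each group had 1 library.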
